A study of Homo sapiens with 16 samples.

Results

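The polysome loading of mRNAs was compared between H69M cells with a knockdown of EIF6 and H69M control cells. The measure was (sheIF6 polysomal − sheIF6 cytoplasmic) − (shNTC polysomal − shNTC cytoplasmic) on the log2 scale, named the change of polysome loading. It was computed for every gene with enough counts over the 16 libraries of the series, 23100 of the 56832 gene names in the table. The change itself compares the 8 H69M libraries, and with these alone 20842 genes passed the filter. A value below 0 means that a gene had less RNA on polysomes, relative to its cytoplasmic level, in the knockdown than in the control.

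The series sequenced cytoplasmic RNA and RNA from the polysomal part of sucrose gradients in the lung cancer lines H69 and H69M, which the labels call SCLC (small cell lung cancer) cells. The control groups carry shNTC and are labelled wild type, and the knockdown groups carry sheIF6 and are labelled eIF6 knockdown. Both H69M lines grew in RPMI 1640 with fetal bovine serum under the treatment label "normal", and cytoplasmic RNA was taken in a hypotonic buffer with cycloheximide. Each of the 4 H69M groups (shNTC cytoplasmic, shNTC polysomal, sheIF6 cytoplasmic, sheIF6 polysomal) holds 2 libraries, numbered 1 and 2. The labels give 1 shRNA line per target and do not state how many clones or shRNA sequences it holds, nor that the 2 libraries of a group are separate cultures.

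eIF6 is a factor that binds the large (60S) ribosomal subunit during its maturation and keeps it from joining the small (40S) subunit. It leaves the 60S subunit through the action of SBDS and the GTPase EFL1, after which the subunit can form translating ribosomes. An mRNA that carries several ribosomes sediments with the polysomes, so the ratio of its polysomal to its cytoplasmic level is read as a measure of ribosome loading. mRNAs for ribosomal proteins and many translation factors begin with a C followed by a run of pyrimidines (a 5′ terminal oligopyrimidine or TOP start), a feature through which mTOR signalling sets their loading.

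Library totals of the 8 H69M libraries ran from 36005326 to 87269772 counts. The deepest library, sheIF6 cytoplasmic 1, stood apart. The ribosomal protein genes together made 55542 CPM (counts scaled to a common library total) in it, against 31221 in sheIF6 cytoplasmic 2 and 22102 and 27173 in the 2 control cytoplasmic libraries. The medians of gene groups are therefore also given without both fractions of sheIF6 number 1. As to the cell label, the 32 neuroendocrine genes summed to 1069 to 2223 CPM over the H69M libraries, VIM had 1905 to 4689 CPM and YAP1 had 96.2 to 273 CPM. Of markers of other cells, 10 of 12 immune genes and 6 of 6 erythroid genes were under 1 CPM in all H69M libraries, with CD3D, NKG7 and HBB at 0. Of 8 endothelial genes 4 were under 1 CPM in all H69M libraries, and the list summed to 9.80 to 33.7 CPM. Of 9 fibroblast genes only 1 was under 1 CPM in all H69M libraries, and the list summed to 10183 to 38457 CPM, nearly all from COL1A1 and COL1A2. The part of any such cells in the results was not tested.

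EIF6, the targeted gene, had lower levels in both fractions of the knockdown. Its cytoplasmic level was 204 and 165 CPM in the 2 control libraries and 161 and 96.3 CPM in the 2 sheIF6 libraries. Its polysomal level was 323 and 202 CPM in the controls and 86.4 and 136 CPM in the sheIF6 libraries. The polysomal libraries did not overlap between the groups, and neither did the cytoplasmic ones, although by a small margin in the latter. The fitted differences did not pass the limit in either fraction (log2 −0.52, adjusted p = 0.547, and −1.24, adjusted p = 0.204, edgeR quasi-likelihood test with Benjamini-Hochberg adjustment). Since CPM are shares within a library, the total amount of polysomal RNA was not measured, and in RNA from whole cultures fewer cells with a transcript and less of it per cell cannot be told apart.

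No gene passed the limit for a change of polysome loading. Of 23100 genes, 0 were called higher (0% of those tested) and 0 lower (0%), and the smallest adjusted p was 0.9999 by edgeR's quasi-likelihood test. At an unadjusted p under 0.05, 151 genes were higher (0.654%) and 241 lower (1.04%), 392 in all (1.70%). DESeq2 called 1 gene, ZNF320, and limma-voom called 0. The fitted value was above 0 for 11071 genes (47.9%) and below 0 for 11803 genes (51.1%). Among 9942 genes with a known length and a mean above 3 log2 CPM, the change had an SD of 0.34 across genes and a median standard error (SE) of 0.41, and 92 genes exceeded 1 in either direction. The chi-square of replicate counts was 132 to 244 per degree of freedom, so the spread between the 2 libraries of a group exceeded the counting error.

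The mRNAs of the ribosomal proteins lay on one side. All 79 tested genes had a fitted change below 0, beside 51.1% of all genes, with a median of −0.66 against −0.013 over all genes tested. None was called, and 9 of the 79 had an unadjusted p under 0.05 in the lower direction, beside 1.04% of all genes. The 47 proteins of the large subunit, the one eIF6 binds, had a median of −0.63 and the 32 of the small subunit −0.72. These genes share reads with many processed pseudogenes, and how the authors' counting divided such reads is not given in the sources used here.

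The value came from 1 of the 2 knockdown pairs. Taking the polysomal and cytoplasmic library with the same number as a pair, the median loading of ribosomal protein mRNAs was −0.27 and −0.32 in the control pairs 1 and 2. It was −1.74 in sheIF6 pair 1 and −0.30 in sheIF6 pair 2, so that sheIF6 pair 2 lay between the controls and only sheIF6 pair 1 lay below them. Without both fractions of sheIF6 number 1 the median change was 0.05, with 42 of 79 genes above 0, and without both of sheIF6 number 2 it was −1.37, with none above 0. With sheIF6 cytoplasmic 1 alone left out it was −0.22, with 11 above 0. With sheIF6 polysomal 1 alone left out it was −0.39, with 7 above 0. The medians of the fitted knockdown changes in cytoplasmic and polysomal RNA were 0.76 and 0.16, with 0 genes called in either fraction. On polysomes the genes summed to 21931 and 24383 CPM in the controls and to 20131 and 29832 CPM in the knockdown. The polysomal groups thus overlapped. Both knockdown pairs lay below both control pairs for 14 of the 79 genes, beside 13.9% of all genes tested, and above them for 0, beside 12.6%.

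The starts of 4 of these mRNAs show a sequence feature that many ribosomal protein mRNAs carry. Each line gives 15 bases before and 15 bases from the annotated RefSeq start (GRCh38.p14, on the gene's own strand), with capitals for the unbroken pyrimidine run that begins at the start. They lie at chr4:151099613-151099642 (plus strand, RPS3A), chr13:27251543-27251572 (plus, RPL21), chr3:101686704-101686733 (minus, RPL24) and chr19:41860240-41860269 (plus, RPS19). The last line is EIF6 (chr20:35284703-35284732, minus), which has no such run at its start. Not printed are a further annotated start of RPS19 (chr19:41860389-41860418) and that of RPL9 (chr4:39458908-39458937, minus), both without such a run.
RPS3A: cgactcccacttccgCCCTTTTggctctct
RPL21: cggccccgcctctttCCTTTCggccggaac
RPL24: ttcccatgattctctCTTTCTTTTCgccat
RPS19: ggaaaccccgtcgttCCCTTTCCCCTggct
EIF6: ttacttggtaagctggtgtgaggggaacct
A C at the start followed by at least 4 bases that are each C or T was found in 46 of 63 ribosomal protein genes with an annotated start (73.0%) and in 841 of all 12117 tested genes with one (6.94%). The search looked at the gene's own strand only and took any annotated start of a gene. Ribosomal protein genes with such a start had a median change of −0.63 and those without it −0.70. Among other genes the medians were −0.042 with it (795 genes) and −0.029 without it. In both sets the medians with and without the start lay close together.

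RPS3A, a small subunit protein, and RPL21, a large subunit protein, had the smallest unadjusted p among the ribosomal proteins of their subunit. RPS3A had 260 and 385 CPM in the control cytoplasm and 856 and 474 CPM in the knockdown cytoplasm, libraries 1 and 2. On polysomes it had 359 and 350 CPM in the controls and 280 and 379 CPM in the knockdown. Its polysomal levels overlapped, and the highest of the 4 cytoplasmic values was sheIF6 number 1. The change was −1.15 (SE 0.41, unadjusted p = 0.0145, edgeR). RPL21 had 104 and 124 CPM in the control cytoplasm, 308 and 167 CPM in the knockdown cytoplasm, 132 and 93.1 CPM on control polysomes and 86.2 and 107 CPM on knockdown polysomes. Its change was −1.28 (SE 0.45, unadjusted p = 0.0134, edgeR), and again sheIF6 cytoplasmic 1 stood above the other 3 cytoplasmic libraries. The range over the 79 genes ran from −3.57 for RPS18, whose SE was 2.60, to −0.12 for RPL41.

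**Figure D1:**
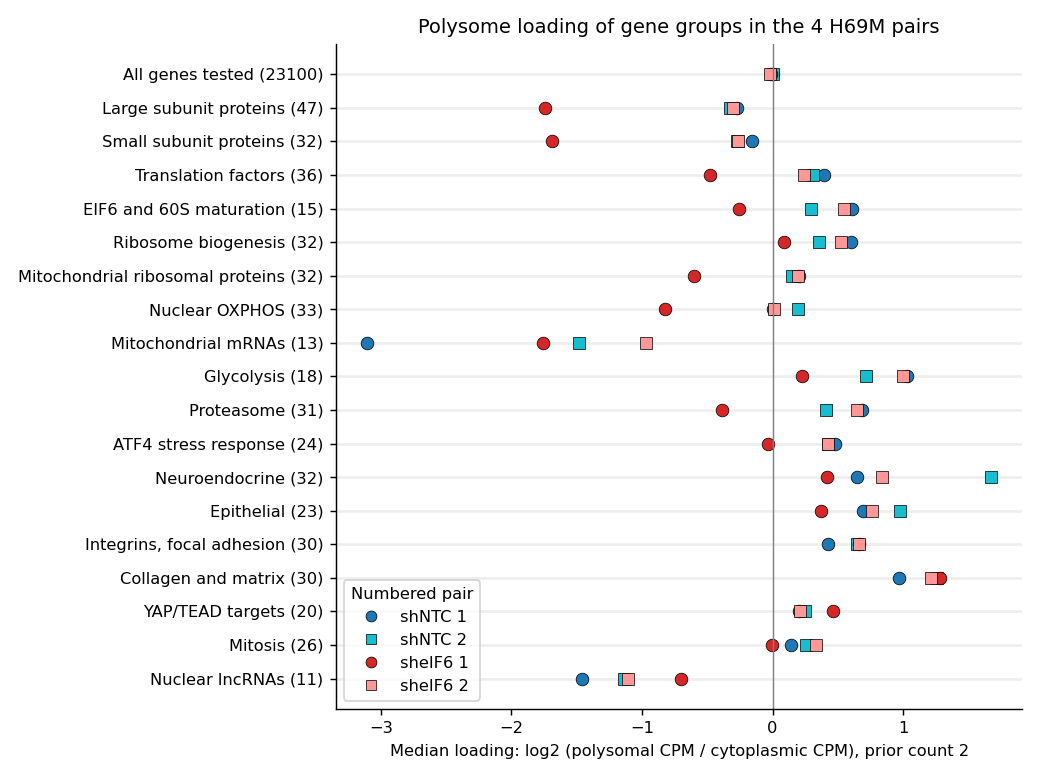
Median polysome loading (x axis, log2 of polysomal over cytoplasmic CPM, prior count of 2) of each gene group (rows, tested genes in brackets) in the 4 numbered pairs of H69M. Large subunit proteins lie near −0.3 in 3 pairs and at −1.74 in sheIF6 pair 1, and mitochondrial mRNAs run from −3.10 in shNTC pair 1 to −0.97 in sheIF6 pair 2.

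Other groups, most of them of short mRNAs, had values on the same side. The 33 tested nuclear genes of oxidative phosphorylation, subunits of the respiratory chain and ATP synthase, all lay below 0 with a median of −0.47. COX6C, a subunit of cytochrome c oxidase, had a change of −1.06 (SE 0.51, unadjusted p = 0.0571, edgeR), and COX4I1, another subunit, had −0.76 (SE 0.44). COX6C had 76.4 and 76.4 CPM in the control cytoplasm against 152 and 93.9 CPM in the knockdown, and 82.5 and 42.1 CPM on control polysomes against 33.3 and 62.7 CPM. Its loading overlapped between the groups. Without both fractions of sheIF6 number 1 the group's median was 0.02 with 17 genes above 0.

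All 32 proteins of the mitochondrial ribosome lay below 0 too, with a median of −0.50, and 1 of them, MRPL15, had an unadjusted p under 0.05 (−0.75, SE 0.34). MRPL15 loading was 1.06 and 0.54 in the control pairs and −0.48 and 0.53 in the knockdown pairs, so sheIF6 pair 2 lay just under shNTC pair 2. Both knockdown pairs were below both control pairs for 12 of the 32 genes, beside 13.9% of all genes tested. The median without sheIF6 number 1 was −0.02, with 15 genes above 0. Of 18 glycolytic enzymes 17 lay below 0 (median −0.46). Their median transcript length was 2685.5 bases, beside 3109 over all tested genes with a length. TPI1, which interconverts the triose phosphates, had −0.93 (SE 0.41, unadjusted p = 0.0398, edgeR), and ALDOA, the aldolase that yields them, had −0.88 (SE 0.47). Of 31 proteasome subunits 29 lay below 0 (median −0.35), with PSMB4 at −0.64 and PSMB7 at −0.57. Without sheIF6 number 1 these medians were 0.06 for glycolysis and 0.08 for the proteasome.

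Translation factors followed with a smaller value. Of 36, 28 lay below 0, with a median of −0.25, which was 0.01 without sheIF6 number 1. EEF1B2, a subunit of the exchange factor for the elongation factor eEF1A, had −0.94 (SE 0.35, unadjusted p = 0.0207, edgeR). EIF3K, a subunit of the initiation factor eIF3, had −0.96 (SE 0.44, unadjusted p = 0.0487, edgeR). EEF1B2 loading was 0.88 and 0.43 in the control pairs and −0.92 and 0.32 in the knockdown pairs.

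The genes listed with EIF6 and 60S maturation lay mostly below 0 as well. Of the 15, 13 lay below 0 with a median of −0.21, and the median was 0.04 without sheIF6 number 1. SBDS, which helps to release eIF6, had a change of −0.11 (SE 0.31), and EFL1, its GTPase partner, had 0.11 (SE 0.36). LSG1 and NMD3, which act in export and late maturation of the 60S subunit, had −0.17 and −0.0047. RACK1, the ribosomal scaffold protein that recruits protein kinase C, had −0.87 (SE 0.46), with a loading of 0.71 and 0.61 in the controls and −1.14 and 0.75 in the knockdown pairs. EIF6 had −0.72 (SE 0.42, unadjusted p = 0.106, edgeR), with a loading of 0.66 and 0.29 in the controls and −0.90 and 0.50 in the knockdown. For both genes sheIF6 pair 2 lay within or above the controls. The 32 ribosome biogenesis genes had a median of −0.11 with 10 above 0, or 0.04 without sheIF6 number 1. Among them FBL, the methyltransferase of box C/D snoRNPs, had −0.95 (SE 0.40, unadjusted p = 0.0341, edgeR).

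The change followed transcript length among the 9942 genes with a known length and a mean above 3 log2 CPM. The median change was −0.45 for the 376 of them with transcripts of up to 1000 bases, of which 7.45% lay above 0. It was −0.15 for the 2203 genes of 2001 to 3000 bases, 0.10 for the 2197 genes of 4001 to 6000 bases and 0.31 for the 445 genes over 10000 bases, of which 87.6% lay above 0. Spearman's rank correlation of change and length was 0.61 over these genes, which share the same 8 libraries, so it is given as a description.

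The length pattern was present in 1 pair. The difference between pairs with number 1 ran from −0.91 in the shortest to 0.69 in the longest class, while that between pairs with number 2 ran from 0.083 to −0.057. The rank correlation was 0.66 for number 1 and −0.15 for number 2. The loading of sheIF6 pair 1 had a rank correlation of 0.58 with length, against 0.022, 0.034 and −0.019 in shNTC pairs 1 and 2 and sheIF6 pair 2. In sheIF6 cytoplasmic 1 the shortest class stood 0.79 above and the longest class 0.57 below the control mean (log2 levels of 0.79 and −0.57), against 0.21 and −0.088 in sheIF6 cytoplasmic 2. In H69 the knockdown change had a rank correlation of 0.028 with length. The library sheIF6 cytoplasmic 1 was also the deepest of the 8; the part of depth in its length pattern was not tested.

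**Figure D2:**
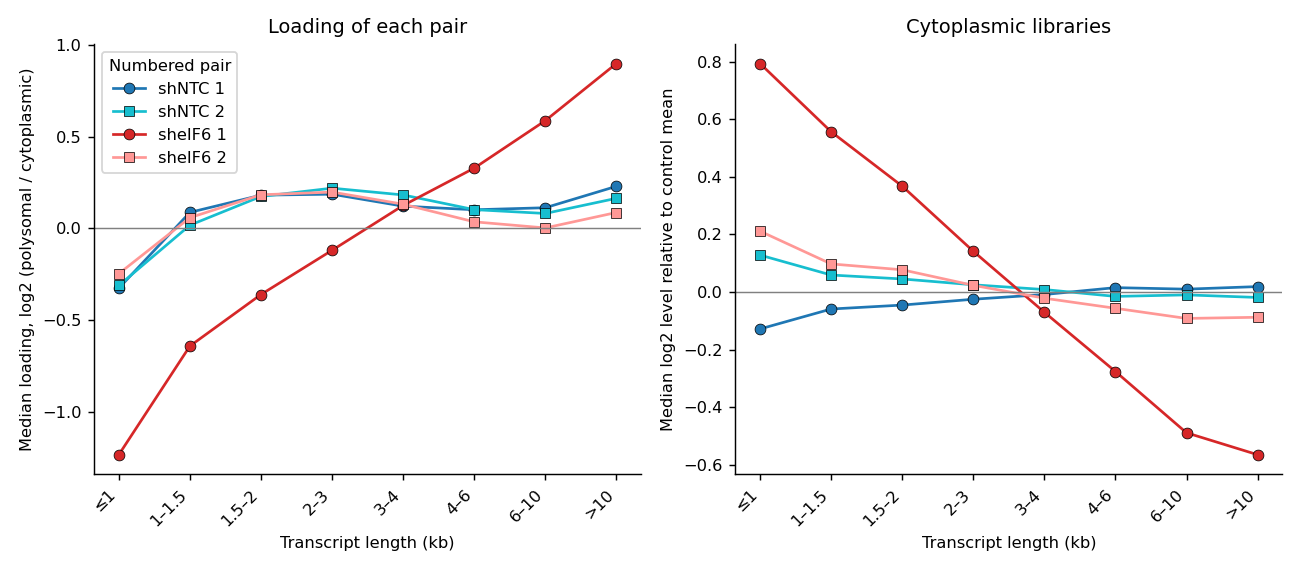
Left, median polysome loading (log2) of the 4 H69M pairs by transcript length class (kb); right, median log2 level of each cytoplasmic library relative to the mean of the 2 control cytoplasmic libraries. The line of sheIF6 pair 1 runs from −1.23 to 0.90 on the left and from 0.79 to −0.57 on the right, while the other 3 pairs stay between −0.33 and 0.23 on the left.

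A trend of levels on transcript length was fitted in each library and removed before the change was fitted again. The ribosomal proteins then had a median of −0.35 with 6 of 79 above 0. The nuclear oxidative phosphorylation genes had −0.23 and the mitochondrial ribosomal proteins −0.21. The glycolytic enzymes had −0.30 with 1 of 18 above 0. These remaining values use all 8 libraries and still include sheIF6 number 1. With the trend removed edgeR called 0 of 15181 genes, with 140 at an unadjusted p under 0.05.

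The mRNAs encoded by mitochondrial DNA lay on the opposite side. They are translated inside mitochondria by mitochondrial ribosomes, not by the cytoplasmic 60S subunits that eIF6 binds. All 13 had a change above 0, with a median of 0.52 and a range of 0.21 to 1.53, and 0 were called. Median loading was −3.10 and −1.48 in the control pairs and −1.76 and −0.97 in the knockdown pairs, so shNTC pair 1 was the lowest and the groups overlapped. MT-ATP8, a subunit of ATP synthase, had 429 and 553 CPM in the control cytoplasm, 326 and 487 CPM in the knockdown cytoplasm, 30.5 and 118 CPM on control polysomes and 149 and 206 CPM on knockdown polysomes. Its change was 1.53 (SE 0.90, unadjusted p = 0.114, edgeR), and both knockdown polysomal libraries stood above both controls. MT-ND4L, a subunit of complex I, had 1.17 (SE 0.74). Without shNTC polysomal 1 the group's median was −0.09 with 6 of 13 above 0, and without shNTC polysomal 2 it was 1.76 with 13 above 0. Without both fractions of sheIF6 number 1 it was 0.86 with 13 above 0, and without both of sheIF6 number 2 it was 0.08 with 9 above 0.

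Long noncoding RNAs that are mostly nuclear, with MALAT1 and NEAT1 among them, were described too. Whether their loading is a baseline for RNA that is not translated was not tested. Of 11, 10 lay above 0 with a median of 0.38, or 0.33 with 9 of 12 above 0 when sheIF6 number 1 was left out, where 12 genes passed the filter. MALAT1 loading was −3.13 and −3.37 in the controls and −2.24 and −2.85 in the knockdown. TUG1 had the smallest unadjusted p of the list, with a change of 0.33 (SE 0.32), and KCNQ1OT1 had 0.55 (SE 0.55). In both knockdown pairs the loading was above both controls for 4 of the 11 genes, beside 12.6% of all genes.

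Genes of cell identity and adhesion differed in sign between groups. Of 32 neuroendocrine genes, 26 lay below 0 with a median of −0.47. SCG5, a chaperone of the secretory granule convertase, had 12.5 and 8.91 CPM in the control cytoplasm against 18.1 and 15.9 CPM, and 58.0 and 17.2 CPM on control polysomes against 18.5 and 22.1 CPM. Its change was −1.56 (SE 0.60, unadjusted p = 0.0224, edgeR), and shNTC polysomal 1 stood above the other 3. UCHL1, a neuronal ubiquitin hydrolase, had −0.74 (SE 0.34, unadjusted p = 0.0488, edgeR). The direction of this list rested on single libraries: its median was −0.28 without both fractions of sheIF6 number 1, 0.94 without shNTC polysomal 2, 0.38 without sheIF6 cytoplasmic 2 and −1.50 without sheIF6 polysomal 2.

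Of 23 epithelial genes, 17 lay below 0 (median −0.24). EPCAM, an epithelial adhesion molecule, had 57.1 and 61.8 CPM on control polysomes and 19.3 and 39.8 CPM on knockdown polysomes, with cytoplasmic levels of 28.1 and 18.5 CPM against 24.4 and 24.8 CPM. Its change was −1.08 (SE 0.42, unadjusted p = 0.0233, edgeR), and the 2 groups did not overlap on polysomes. Of 30 collagen and matrix genes, 23 lay above 0 (median 0.16), among them FBN1 and FBN2, the fibrillins of microfibrils, with 0.47 and 0.51. This direction turned with 1 library left out: the median was −0.17 without shNTC cytoplasmic 2, −0.15 without shNTC polysomal 1, −0.08 without sheIF6 cytoplasmic 1 and −0.07 without sheIF6 polysomal 2. Of 30 integrin and focal adhesion genes, 19 lay above 0 (median 0.15), with SRC, a tyrosine kinase, at −0.32. With the length trend removed the matrix and adhesion medians were 0.02 and 0.0052. Without both fractions of sheIF6 number 1 the epithelial, matrix and adhesion medians were −0.15, 0.10 and 0.05.

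Genes of the ATF4 stress response had medians below 0 in both fractions and a loading change closer to 0. The 24 genes had medians of −1.12 in cytoplasmic RNA and −1.50 in polysomal RNA, and a median change of loading of −0.13 with 8 above 0. ATF4, the transcription factor whose own translation depends on upstream reading frames, had 422 and 161 CPM in the control cytoplasm and 204 and 165 CPM in the knockdown cytoplasm. On polysomes it had 688 and 143 CPM in the controls and 117 and 135 CPM in the knockdown, so shNTC number 1 alone stood high in both fractions. Its change of loading was −1.06 (SE 0.83). The list's median was 0.02 without both fractions of sheIF6 number 1. With 1 library left out it ran from −1.93, with 1 of 24 above 0, without shNTC cytoplasmic 1 to 0.97 without shNTC polysomal 1. It was −0.84 without shNTC polysomal 2 and 0.30 without shNTC cytoplasmic 2.

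**Figure D3:**
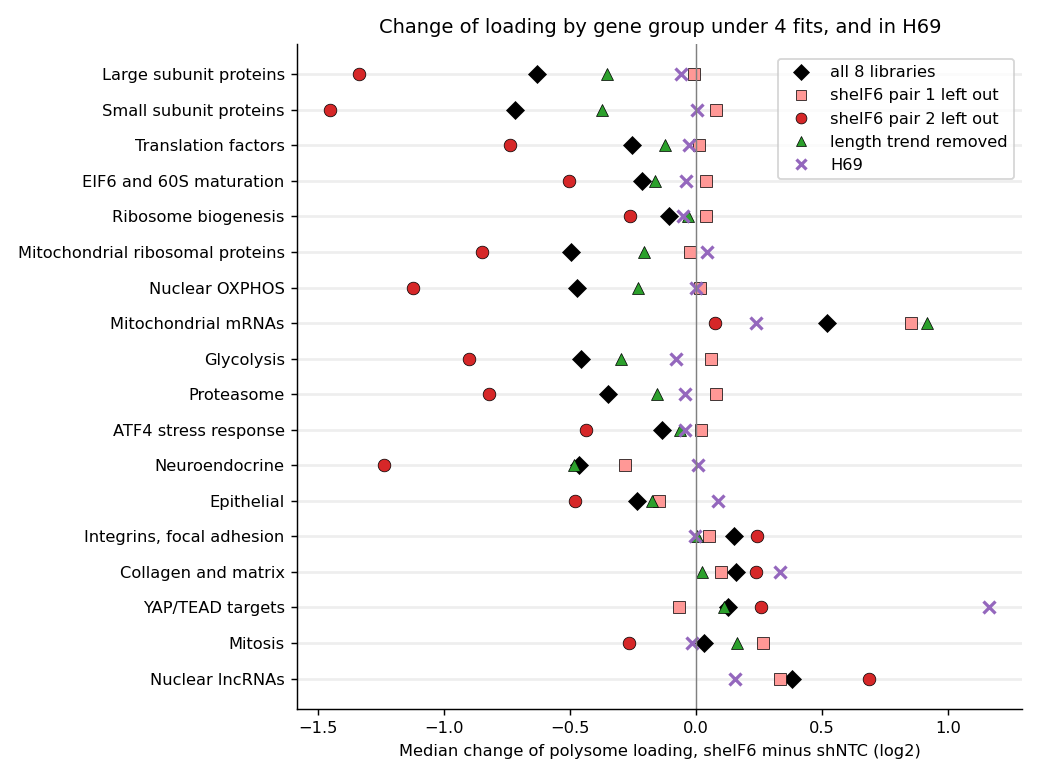
Median change of polysome loading (x axis, log2, sheIF6 minus shNTC) of each gene group (rows) with all 8 H69M libraries, without either knockdown pair, with the length trend removed where the fit gave a value, and in H69. Large subunit proteins lie at −0.63 with all libraries, −0.01 without sheIF6 pair 1 and −1.34 without sheIF6 pair 2.

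The single genes with the smallest unadjusted p in the higher direction were headed by genes that share their locus with another gene. ZNF320, a KRAB zinc finger gene, had a change of 6.07 (SE 1.01, unadjusted p = 6.2e-05, edgeR). It had 93.4 and 68.95 CPM in the control cytoplasm, 7.89 and 7.36 CPM in the knockdown cytoplasm, 3.003 and 3.90 CPM on control polysomes and 4.74 and 38.9 CPM on knockdown polysomes. ZNF468 overlaps it on the minus strand (chr19:52838008-52890375, against chr19:52863790-52897693 for ZNF320, GRCh38) and ran the other way, with 47.0 and 36.0, 88.2 and 104, 72.7 and 56.2, and 59.4 and 14.1 CPM in the same order and a change of −2.02 (SE 0.65). When the counts of both genes were added, loading was −0.89 and −0.81 in the controls and −0.58 and −1.07 in the knockdown, so the groups overlapped. This sum and the next were chosen after the values were seen.

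BIVM-ERCC5 is a read-through gene across BIVM and ERCC5, and had a change of 9.25 (SE 2.82). It had 42.3, 43.7, 31.4 and 56.4 CPM in the 4 cytoplasmic libraries, but 0, 0.050, 0 and 34.6 CPM on polysomes in shNTC 1, shNTC 2, sheIF6 1 and sheIF6 2. Only sheIF6 polysomal 2 was high, and without that library the value was −3.43. ERCC5 ran opposite to it on polysomes, with 28.7, 24.5, 28.7 and 2.77 CPM. The sum over the 3 genes gave a loading of −0.66 and −0.87 in the controls and −0.41 and −0.81 in the knockdown.

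Genes without such a partner in the table on the same strand had smaller values. Of them, RICTOR (OSMR), WDR46 (B3GALT4 and PFDN6), ZNF490 (ZNF791) and PAK6 (C15orf56) overlap the genes in brackets on the other strand. The kit does not tell reads of the strands apart. ARHGEF18, a guanine nucleotide exchange factor, had 63.0 and 71.6 CPM in the control cytoplasm, 24.9 and 34.9 CPM in the knockdown cytoplasm, 120 and 155 CPM on control polysomes and 157 and 159 CPM on knockdown polysomes. Its loading was 0.93 and 1.12 in the controls and 2.66 and 2.19 in the knockdown, without overlap, and the change was 1.37 (SE 0.45, unadjusted p = 0.00989, edgeR). RICTOR, the defining subunit of mTOR complex 2, had 55.0 and 42.0 CPM in the control cytoplasm against 14.7 and 15.02 CPM, and 37.1 and 28.2 CPM on control polysomes against 22.5 and 16.4 CPM. RICTOR was thus lower in both fractions and more so in the cytoplasm, where its change of −1.71 was called (adjusted p = 0.0203, edgeR). Its change of loading was 0.96 (SE 0.34, unadjusted p = 0.0148). WDR46, a nucleolar protein of small subunit assembly, had a loading of 0.88 and 0.19 in the controls and 1.65 and 1.60 in the knockdown, with a change of 1.09 (SE 0.35). The others in this direction were ZNF490 (3.96), ZNF736 (2.50), ZNF564 (1.65), ACBD7 (1.63), PAK6 (1.50), ZFP37 (1.32) and FUT9 (1.00), each under 30 CPM in all 8 libraries.

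In the lower direction, PRDX2, a cytosolic peroxiredoxin whose gene overlaps HOOK2 on the same strand, had the highest level among the 12 genes of smallest unadjusted p. It had 109 and 133 CPM in the control cytoplasm, 400 and 234 CPM in the knockdown cytoplasm, 260 and 321 CPM on control polysomes and 261 and 372 CPM on knockdown polysomes. Its cytoplasmic RNA was higher in both knockdown libraries while the polysomal levels overlapped, and the change of loading was −1.26 (SE 0.38, unadjusted p = 0.00562, edgeR). EBPL, a homologue of the sterol isomerase EBP, had a loading of 0.60 and 0.73 in the controls and −0.44 and −0.35 in the knockdown, so that both knockdown pairs sat close together below the controls. Its change was −1.07 (SE 0.33, unadjusted p = 0.00677). ENDOG, a mitochondrial endonuclease, had a loading of 1.68 and 1.24 in the controls and −0.38 and 0.68 in the knockdown (change −1.40, SE 0.43). GALK1 and KHK, the kinases that admit galactose and fructose to metabolism, had −1.07 and −1.18.

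Several genes in this direction were also higher in cytoplasmic RNA of the knockdown. NSG1, a neuronal endosomal protein, had 0.45 and 0.34 CPM in the control cytoplasm and 5.21 and 4.68 CPM in the knockdown cytoplasm, where its change of 3.63 was called (adjusted p = 0.0132, edgeR). On polysomes it had 2.07 and 1.23 CPM in the controls and 3.71 and 6.47 CPM in the knockdown, and the change of loading was −2.01 (SE 0.54). CKMT1B, a mitochondrial creatine kinase with the near-identical copy CKMT1A, had −1.73 (SE 0.47). The sum of both copies had a loading of 1.64 and 2.22 in the controls and −0.43 and 1.30 in the knockdown, also without overlap. TNMD, a membrane protein of tendon, had 0 CPM in both control cytoplasmic libraries, so no fold is given. C2orf74 (−2.68) and TMEM145 (−1.79) stayed under 12 CPM. Of the 26 named genes, 14 overlap another tested gene, and reads on opposite strands cannot be told apart with a kit that does not mark strand.

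**Figure D4:**
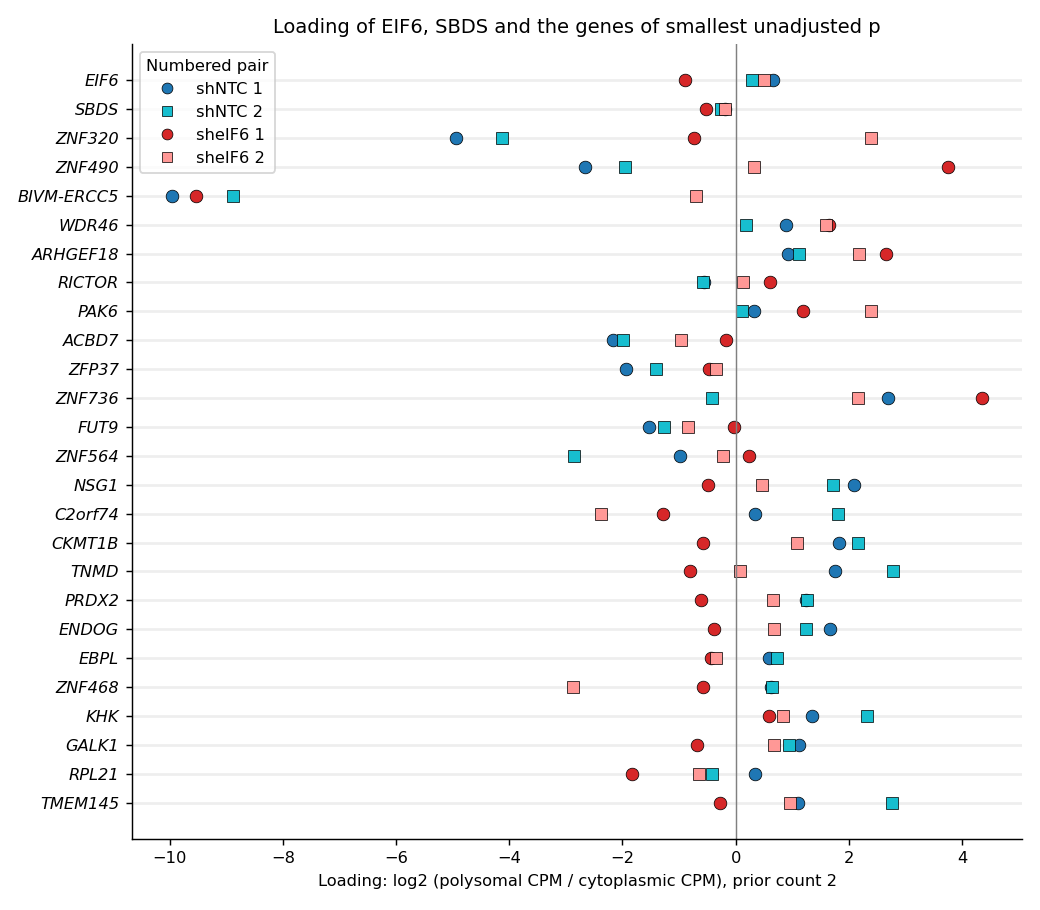
Polysome loading (x axis, log2 of polysomal over cytoplasmic CPM, prior count of 2) of EIF6, SBDS and the 12 genes of smallest unadjusted p in each direction (rows) in the 4 numbered pairs. Both knockdown pairs of EBPL lie at −0.44 and −0.35, below the controls at 0.60 and 0.73, whereas EIF6 overlaps between the groups.

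Genes called in one fraction of H69M had the same sign in the other. In cytoplasmic RNA of H69M 21 genes were called higher (0.0909% of those tested) and 15 lower (0.0649%), and on polysomes 7 higher (0.0303%) and 8 lower (0.0346%). The 21 had median changes of 2.69 in cytoplasmic and 1.89 in polysomal RNA, with the same sign in 21 of 21, and a median change of loading of −0.52. The 15 had medians of −2.15 and −1.94, with the same sign in 15 of 15, and a change of loading of 0.21. The 7 and the 8 genes called on polysomes had medians of 3.22 and 2.50, and of −2.21 and −2.24, in cytoplasmic and polysomal RNA. The change of loading is built from the same libraries that chose these genes, so its sign in them is no result.

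**Figure D5:**
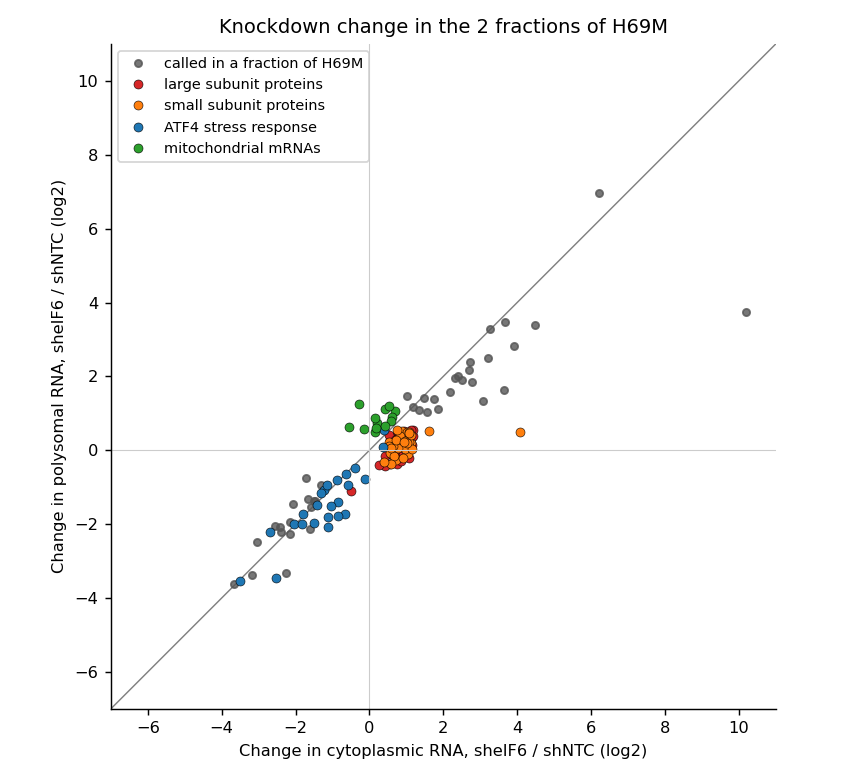
Knockdown change in cytoplasmic RNA (x axis, log2) against that in polysomal RNA (y axis, log2) for genes called in a fraction of H69M and for members of 4 groups; the grey diagonal marks no change of loading. The ATF4 stress genes lie along the diagonal with medians of −1.12 and −1.50, and the ribosomal proteins lie to its right with medians of 0.76 and 0.16.

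H69, whose libraries are separate from those of H69M, gave a comparison under the same shRNA labels. There edgeR called 0 of 23100 genes for the change of loading, with 383 at an unadjusted p under 0.05 (1.66%). The ribosomal proteins had a median of −0.05 with 30 of 79 above 0, the nuclear oxidative phosphorylation genes 0.0013 with 17 of 33, the mitochondrial ribosomal proteins 0.04 with 18 of 32 and the mitochondrial mRNAs 0.24 with 10 of 13. The change in EIF6 loading was −0.06 (SE 0.42) in H69. The test of the difference between lines called 0 genes by edgeR (0%), with 384 at an unadjusted p under 0.05 (1.66%); DESeq2 called 2 and limma-voom 0. For the ribosomal proteins the median difference between lines was −0.66, and 1 of 79 had an unadjusted p under 0.05. ZNF320 and ZNF468 had changes of 7.20 and −2.06 in H69 as well, and the loading of their sum was −1.11 and −1.10 in the H69 controls and −1.06 and −0.77 in the H69 knockdown.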

How the data were processed

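The authors deposited raw counts per gene name for 16 libraries; the submitters' processing notes name STAR, HTSeq and GRCh38, and versions and the strand setting are not given in the sources used here. The library kit (NEBNext Ultra RNA, per the labels' protocols) does not mark strand. The counts were tested with edgeR 4.0.16 (R 4.3.3) after filterByExpr (minimum count 10), TMM scaling and 1 robust quasi-likelihood fit with a mean for each of 8 groups (8 residual degrees of freedom, common dispersion 0.153), Benjamini-Hochberg adjustment over 23100 genes and a limit of 0.05. The H69 libraries entered the filter, the scaling and the estimate of the spread. SE is the log2 change over the square root of F. Loading per numbered pair used log2 CPM with a prior count of 2. Transcript lengths and positions came from GENCODE release 29 (29502 gene names matched 1 gene; 15181 tested genes had a length), and start sequences from RefSeq (GRCh38.p14). The fit was also run on simulated counts with planted changes, drawn for each library separately. That simulation held no shared deviation of same-numbered libraries, and no conclusion on the absence of calls is drawn from it.

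Named were EIF6, SBDS, the 12 genes of smallest p in each direction (none passed the limit) with 100 or more mean raw counts in the highest H69M group and no clone, antisense, pseudogene or LINC name, and of each described list the 2 members of smallest p. Further members were named for their role, and 1 gene of the rule is not reported here. The members, lists and tests were chosen with earlier results of these data known. Labels do not say that a number marks a shared culture, and the p-values cover only the spread between samples, which may be technical; deviations of same-numbered libraries correlated at r = 0.17 to 0.58 in all 6 pairs of H69M groups, so fits with the number as a block were also made. Other alternatives were RLE and total-count scaling, other filters, DESeq2 1.42.0, limma-voom (limma 3.58.1), H69M alone and libraries left out. Leaving out both fractions of 1 number, and removing the length trend, were added after the data were seen.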

Additional observations from a re-analysis of the deposited data

How the results depend on the processing

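The count of genes called for the change of loading in H69M (0) and for the difference between lines (0) stayed at 0 under RLE or total-count scaling (which moved the median of all genes from −0.013 to 0.08), no or a stricter filter, limma-voom and a fold threshold. With the H69M libraries alone, which give no difference between lines, the count in H69M was also 0. DESeq2 called 1 gene in H69M (ZNF320, 6.09, adjusted p = 1.59e-06) and 2 between lines. Leaving out 1 library gave 0 to 3 calls in H69M: 3 without sheIF6 polysomal 1 (BIVM-ERCC5 10.2, ZNF320 6.90 and ZNF468 −3.40) and 1 without shNTC polysomal 1 (C19orf71). Between lines it gave 0 to 1, with 1 call without H69 shNTC polysomal 1 and 1 without H69M shNTC polysomal 2. Leaving out both fractions of sheIF6 number 1 gave 2 calls in H69M (BIVM-ERCC5 9.87 and ZNF320 6.95), and of sheIF6 number 2 gave 1 (POLR2J2, −10.9); between lines, leaving out shNTC number 2 or sheIF6 number 2 gave 1 each. The cause was not tested.

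The replicate block, within each line or by numbered pair, called 0 genes in H69M and 0 between lines. In H69M it also called 0 with the H69M libraries alone, and 0 by numbered pair with the length trend removed. The pairing thus changed no call, but it changed the estimate of spread. By numbered pair the common dispersion was 0.064, against 0.153 without a block. In H69M 665 genes then had an unadjusted p under 0.05, against 392. The smallest adjusted p was 0.265, against 0.9999 (edgeR quasi-likelihood test).

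Of 930 values of named genes under the alternatives, 916 kept their direction and side of the limit, 6 passed the limit and 8 turned. SBDS (−0.11; −0.36 to 0.087 with 1 library left out) turned to 0.060 without shNTC cytoplasmic 1, 0.040 without shNTC polysomal 2, 0.087 without sheIF6 polysomal 1, 0.041 without both fractions of sheIF6 number 1, and 0.13 and 0.14 with the length trend removed, without and with the block. BIVM-ERCC5 (9.25; −3.43 to 12.6 with 1 library left out) turned to −3.43 without sheIF6 polysomal 2 and −2.92 without both fractions of sheIF6 number 2. Of 751 list medians, 698 moved by less than the spread and 53 by more. The spread was the SD of a list's median changes in numbers 1 and 2, so it is wide where these disagree. The ribosomal proteins, at −1.37 in number 1 and 0.08 in number 2, fell among the 698 when they went from −0.66 to 0.05 without sheIF6 number 1. The 698 therefore do not show that a list median holds without 1 pair. The median SE was 0.41 for the 621 genes above 8 log2 CPM and 1.70 for the 8290 genes at or below 0 log2 CPM. The part of depth was not tested.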

Other observations

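Further gene groups, each with 0 genes called, had these medians of the change of loading in H69M. The 18 genes with regulatory upstream reading frames had a median of −0.15 with 4 above 0, and −0.30 without both fractions of sheIF6 number 1. The 10 tested selenoprotein genes, which read a stop codon as selenocysteine, had −0.05 with 4 above 0, and 0.19 without that pair. The 18 genes of the unfolded protein response had −0.19 (4 above 0) and −0.15 without that pair, the 14 heat shock chaperones −0.14 (4 above 0) and 0.17, and the 17 hypoxia genes −0.32 (5 above 0) and −0.38. Among proliferation genes, the 26 mitosis genes had 0.03 with 14 above 0, and 0.27 with 24 above 0 without that pair. The 25 DNA replication genes had −0.18 with 6 above 0, and 0.05 without it. For 8 of the 26 mitosis genes both knockdown pairs lay above both control pairs, beside 12.6% of all genes tested. The 21 tested NF-kB and inflammatory genes had medians of −1.06 in cytoplasmic and −1.17 in polysomal RNA and −0.21 in loading, or 0.01 in loading without that pair.

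Of the markers of other cell types, the endothelial and immune lists had the highest list medians, at low levels. The fibroblast list, with 5 of 9 above 0, had a median of 0.04. The erythroid list, with 1 of 2 tested genes above 0, had 0.09. The 7 tested endothelial genes had a median of 1.81 with 6 above 0, and the SE of their changes was 1.13 to 2.82. Over 8 genes the median was 3.51 without both fractions of sheIF6 number 1 and 0.30 without both of sheIF6 number 2. Without sheIF6 polysomal 2 alone it was −0.11 with 4 of 8 above 0, so the value rested on that library. The 6 tested immune genes had 0.91 with 5 above 0, and 1.10 without both fractions of sheIF6 number 1. The remaining immune gene, CD14, had −1.42 (SE 0.63, unadjusted p = 0.0427, edgeR).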
